A study of Mus musculus with 9 samples.

Results

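Collagens were followed in mouse embryonic stem cells through auxin treatment aimed at degrading the Polycomb protein Suz12 and through early washout. The 44 genes described here were all protein-coding genes with a symbol made of Col, a number, the letter a and a number, out of 48440 counted genes of which 21683 were protein-coding. The gene Col4a3bp, whose symbol only begins in this way, was not a member. Members were found by symbol. Polyadenylated RNA was sequenced from J1 embryonic stem cells grown with LIF and the 2i inhibitors (PD0325901 and CHIR99021). All 9 libraries carried the genotype Suz12-AID, an auxin-inducible degron on Suz12 through which auxin triggers degradation of the protein, so the control cells carried the tag too. The groups were Mock (3 libraries, no auxin named in the labels), Auxin (3 libraries, 50 µM indole-3-acetic acid for 96 h) and Re-introduction (3 libraries, in which auxin was washed out for 4.5 h). The labels name no clone and no untagged line, and the degron acts on the protein, which was not analysed here. Effects of auxin or washout itself therefore cannot be told apart from effects of Suz12 loss or return.

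Collagens are the triple-helical proteins of the extracellular matrix, built from chains of repeated Gly-X-Y triplets. Fibrillar collagens form the cables of connective tissue, type IV collagens form the sheet-like network of basement membranes, and other classes bead, anchor, decorate or cross cell membranes. Chains of a type assemble in fixed partnerships before secretion, and the early embryo lays down type IV collagen with laminin, nidogen and perlecan in its first basement membranes. Suz12 belongs to the core of Polycomb repressive complex 2 (PRC2), the enzyme complex that methylates histone H3 at many silent developmental genes.

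Promoter-side sequence is shown for 4 collagen genes whose levels changed with treatment. Col4a5 and Col4a6, the neighbouring X-linked basement membrane chains, lie head to head with 1308 bases between their starts, and Col5a1 and Col11a1 encode fibrillar chains that rose in both treated groups. Each stretch runs 5′ to 3′ on the gene's own strand, from 250 bases before the RefSeq start to the last base before any annotated exon (build GRCm38.p6, sequences from RefSeq). Capitals mark matches, on either strand, to the GC box GGGCGG, to the box CCAAT or to the TATA motif TATAAA. The stretches lie at chrX:141475169-141475369 (plus strand) for Col4a5, chrX:141474096-141474326 (minus strand) for Col4a6, chr2:27886175-27886380 (plus strand) for Col5a1 and chr3:114030290-114030478 (plus strand) for Col11a1.
Col4a5: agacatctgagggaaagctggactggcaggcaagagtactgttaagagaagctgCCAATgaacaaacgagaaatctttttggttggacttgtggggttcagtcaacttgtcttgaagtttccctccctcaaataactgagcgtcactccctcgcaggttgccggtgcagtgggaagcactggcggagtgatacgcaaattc
Col4a6: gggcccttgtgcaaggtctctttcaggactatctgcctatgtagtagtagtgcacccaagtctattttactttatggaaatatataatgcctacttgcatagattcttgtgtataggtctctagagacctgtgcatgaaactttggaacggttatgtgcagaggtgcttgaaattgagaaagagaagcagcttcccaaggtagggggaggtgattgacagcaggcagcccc
Col5a1: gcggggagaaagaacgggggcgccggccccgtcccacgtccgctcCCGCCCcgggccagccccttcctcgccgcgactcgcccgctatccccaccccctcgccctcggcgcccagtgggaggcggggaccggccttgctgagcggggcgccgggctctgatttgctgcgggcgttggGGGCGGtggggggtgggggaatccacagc
Col11a1: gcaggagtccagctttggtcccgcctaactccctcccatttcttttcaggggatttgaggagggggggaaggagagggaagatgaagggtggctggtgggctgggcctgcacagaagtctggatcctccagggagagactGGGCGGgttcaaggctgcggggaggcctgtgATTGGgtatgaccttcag
The Col5a1 stretch holds 25 CpG dinucleotides in 206 bases, with GGGCGG beginning 73 bases before the RefSeq start and its reverse complement 205 bases before it. The Col4a6 stretch holds 1 CpG in 231 bases and none of the motifs. The Col4a5 stretch holds 6 CpG and a CCAAT 196 bases before the RefSeq start, and the Col11a1 stretch holds 3 CpG, a GGGCGG and a reversed CCAAT. A match or its absence describes the letters of the window only.

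Over whole promoter windows (300 bases, 250 before and 50 after the start), 38 windows were found for 35 of the 44 collagen genes. GGGCGG was in 23 of them (60.5%), against 35.7% of 32851 windows of all genes. CCAAT was in 13 (34.2%, against 37.4%) and TATAAA in 5 (13.2%, against 13.6%). Median G+C was 59.8% in collagen windows and 52.7% in all windows. The observed to expected CpG ratio reached 0.6 in 11 collagen windows (28.9%, against 35.8%). It was highest for Col4a1 (0.902), and was 0.818 for its divergent partner Col4a2, 0.809 for Col5a1, 0.332 for Col11a1, 0.561 for Col4a5, 0.172 for Col4a6 and 0.0536 for Col20a1. Genes that rose were thus found among windows with high and with low CpG ratios.

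Collagen genes are long and finely divided. Their summed exon length ran from 3095 bp (Col9a2) to 15228 bp (Col12a1), with a median of 7017 bp against 3049 bp over protein-coding genes, of which 14.1% were longer than the median collagen gene. They held a median of 48 merged exon blocks against 7 for protein-coding genes, and Col7a1 held the most, 116. The median gene had blocks of 141 bp on average (all protein-coding genes 407 bp). The reads were 75 bp long and the aligner named in the submitters' processing notes, Bowtie2, does not split reads across introns by default, so reads over exon junctions may be missing from all libraries. Exons of 13 collagen genes overlapped another gene by up to 6.07% of their length (Col9a3, with Tcfl5 on the opposite strand). Counting used no strand, so such reads cannot be assigned with certainty.

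Total counts per library ran from 44341283 to 113931419, with each mate of a read pair counted. Values are CPM (counts scaled to the library total after TMM scaling), given as mean ± SD over 3 libraries, and the test was edgeR's quasi-likelihood test with Benjamini-Hochberg adjustment over 20838 genes. A gene was called higher or lower at an adjusted p below 0.05. The share of all genes whose groups do not overlap was not computed, so non-overlap of groups describes the values only. Across genes, log2 CPM correlated at 0.989 to 0.995 within groups and at 0.936 to 0.977 between groups. Suz12 mRNA was 133 ± 6.62 CPM in Mock, 141 ± 16.9 in Auxin and 168 ± 4.47 in Re-introduction, and its change in Auxin against Mock was not called (adjusted p = 0.349). The stem cell genes Pou5f1 and Nanog lay between 551 and 911 CPM and between 881 and 1243 CPM across all libraries. Over all genes tested, 38.4% were called higher and 34.8% lower in Auxin against Mock, the background for the marker counts that follow. Of the 8 stem cell markers, 6 were called higher in Auxin against Mock, Nanog by 0.19, and 2 were called lower, Pou5f1 (-0.53) and Dppa5a (-1.16). Their summed level was 5543 to 5668 CPM in Mock, 6783 to 7287 in Auxin and 5310 to 5409 in Re-introduction. Of markers of other cell types, those of extraembryonic endoderm, which secretes basement membrane, had a summed level of 7.04 to 8.18 CPM in Mock, 26.4 to 27.4 in Auxin and 15.9 to 17.8 in Re-introduction. In Auxin against Mock, 8 of its 10 tested genes (12 listed) were called higher and 0 lower at the same threshold, Gata4 from 1.47 to 1.92 CPM in Mock to 6.70 to 7.44 CPM in Auxin. Sox17 stayed under 0.76 CPM in all libraries. The fibroblast markers Dcn and Lum were at most 0.0483 CPM everywhere and 0 in Auxin. The fibroblast list of 10 summed to 22.1 to 25.1, 46.0 to 55.4 and 41.5 to 42.6 CPM in the 3 groups, mostly from Thy1. Of this list 3 genes were tested, and in Auxin against Mock 3 were called higher and 0 lower. Endothelial markers summed to 72.9 to 74.8, 179.6 to 193 and 79.0 to 84.5 CPM, mostly Pecam1, with Cdh5 at most 0.414 CPM and 3 of 4 genes called higher in Auxin against Mock. Trophoblast markers summed to 37.7 to 39.7, 25.7 to 28.5 and 67.5 to 71.0 CPM, with Elf5 at most 0.0604 CPM and 2 of 5 tested genes (6 listed) called higher and 3 lower in Auxin against Mock. Chondrocyte markers summed to 6.12 to 7.37, 9.11 to 10.2 and 4.76 to 5.71 CPM, with 2 of 3 tested genes (4 listed) called higher and 1 lower. The part of these markers in the collagen values was not tested, and in bulk RNA fewer cells of a type and less RNA per cell cannot be told apart.

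Most collagen genes were silent or nearly so in these cells. Only 15 of the 44 reached a mean of 1 CPM in any group (8 in Mock, 15 in Auxin and 13 in Re-introduction), and 29 stayed below it. For testing, 30 passed the low-count filter and 14 did not. The untested genes were Col3a1, Col5a3, Col24a1, Col4a3, Col6a3, Col6a6, Col8a1, Col8a2, Col10a1, Col9a1, Col12a1, Col19a1, Col15a1 and Col28a1, with group means of at most 0.114 CPM. Col19a1 and Col8a1 had 0 counts in all 9 libraries, while the 3 short-chain network genes (Col8a1, Col8a2, Col10a1) all went untested. Of the 30 tested genes, 8 reached the filter's level of 0.131 CPM in all libraries of at most 1 group, 5 of them in Auxin alone. Another 1 reached it in Mock alone, and 2 (Col14a1 and Col25a1) in no whole group. Which genes were tested thus depended in part on their level in single groups. Counts over tested genes are therefore not counts over all collagen genes.

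A single gene made up most of the collagen signal. Col18a1, the multiplexin whose C-terminal fragment is endostatin (chromosome 10, 77052178 to 77166548, mm10, exon length 7021 bp), held 113, 107 and 107 CPM in Mock, 79.4, 82.8 and 76.0 CPM in Auxin, and 98.7, 98.4 and 101 CPM in Re-introduction. The 3 groups did not overlap. Per kilobase of exon it stood at 15.5, 11.3 and 14.1 CPM, while Col5a1, Col4a1 and Col11a1 stood at 0.462, 0.974 and 0.0916 CPM per kilobase in Mock. The 44 genes summed to 133 to 140 CPM in Mock, 129.96 to 131 in Auxin and 149 to 152 in Re-introduction. Without Col18a1, the sum was 26.3 to 27.7, 48.4 to 54.0 and 51.0 to 52.1 CPM. Col18a1 thus took 79.5 to 81% of the collagen counts in Mock, 58.4 to 63.1% in Auxin and 65.5 to 66.3% in Re-introduction. Its level fell by 0.46 on the log2 scale in Auxin against Mock (SE 0.0512, adjusted p = 8.73e-06) and then rose by 0.32 in Re-introduction against Auxin (SE 0.0512, adjusted p = 3.34e-04). The remaining difference in Re-introduction against Mock was -0.14 (adjusted p = 0.035), and the call of Col18a1 in Re-introduction against Mock was lost under total-count scaling (-0.0045).

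**Figure D1:**
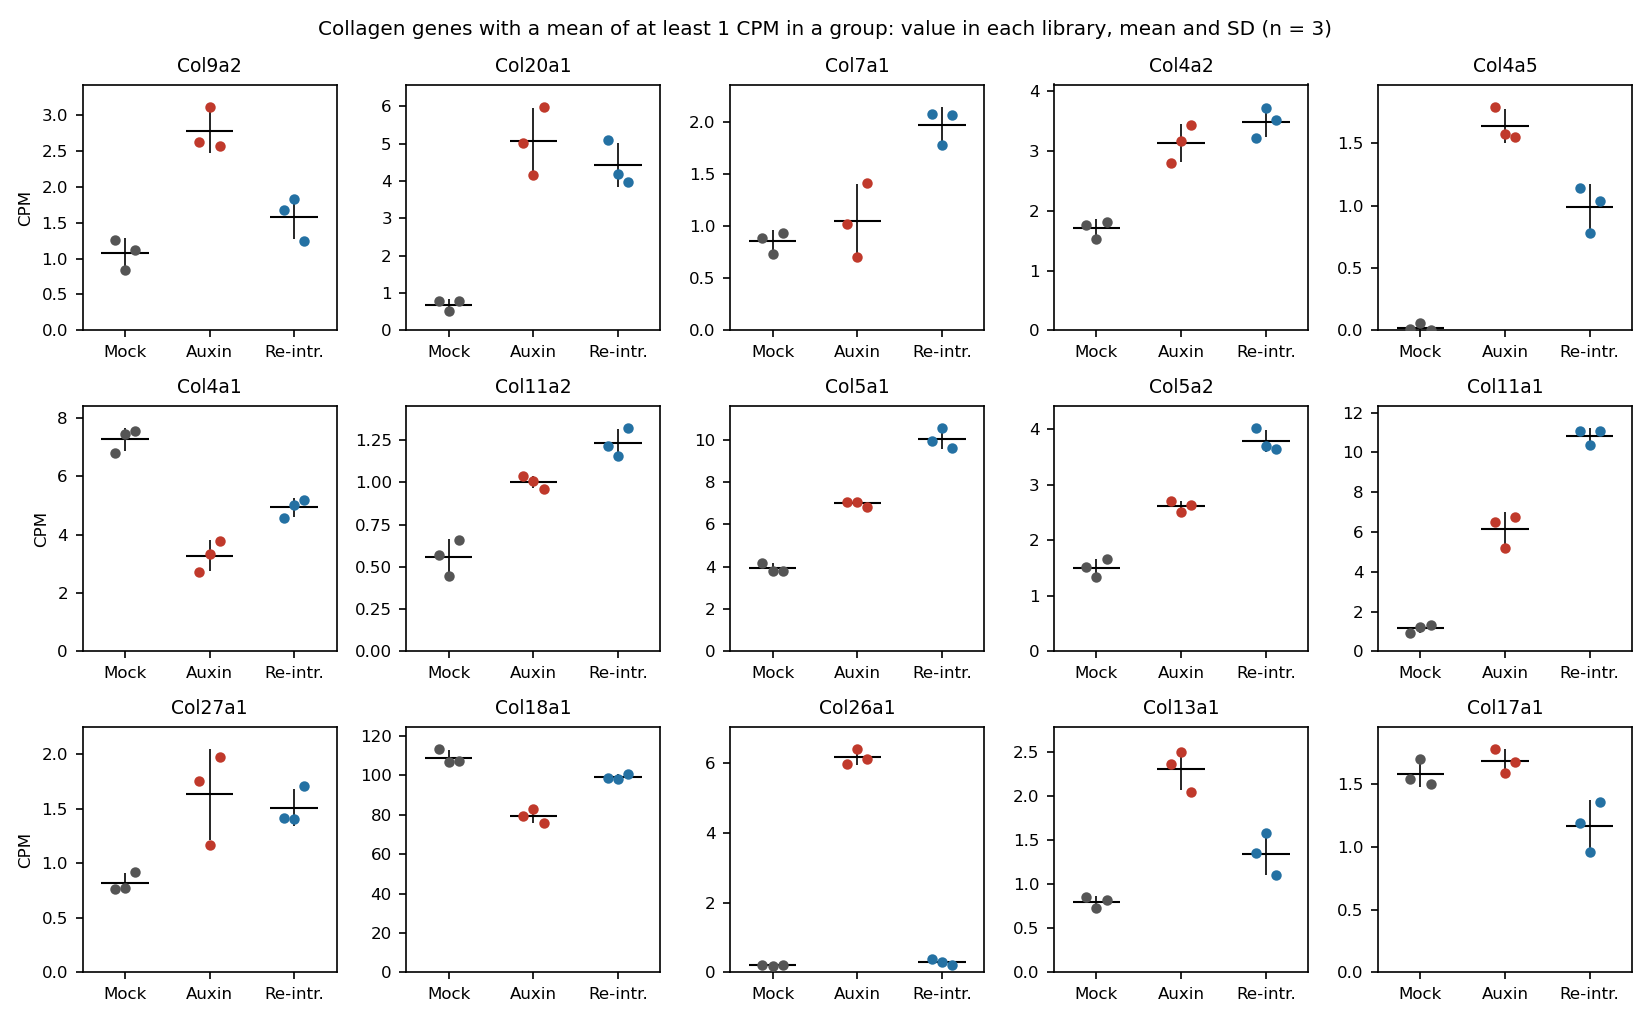
Normalised level of the 15 collagen genes whose group mean reached 1 CPM at least once. Points are libraries, horizontal bars are means and vertical bars are SDs (n = 3), and each panel has its own CPM axis from 0. Col18a1 lies between 76.0 and 113 CPM, and the other 14 genes stay at or below 11.1 CPM.

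The comparison of Auxin with Mock addresses the response to auxin in cells with the Suz12 degron. Of the 30 tested collagen genes in Auxin against Mock, 19 were called higher and 5 lower. The background was 73.2% of all 20838 genes called, 38.4% higher and 34.8% lower, and 78.9% called among protein-coding genes in the same length range. Of those 8810 protein-coding genes, 4298 were called higher and 2651 lower. The share of collagen genes called, 24 of 30, was near that background. The median log2 fold change of tested collagen genes was 0.93 (0.93 also with Col4a6 set to its bound), against 0.05 over all genes and 0.23 over protein-coding genes of the same lengths. Among the 22 tested genes that reached the filter's level in at least 2 groups, 14 were higher and 5 lower. Counts by structural class in this comparison have the same background, 73.2% of all genes called.

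Fibrillar chains were called higher in 5 of 8 tested genes (11 listed) and lower in 2. Col11a1, a chain of the minor fibrillar collagen XI that helps set fibril diameter (chromosome 3, 114030540 to 114220718, exon length 12728 bp), had 0.922, 1.23 and 1.34 CPM in Mock and 6.51, 5.20 and 6.76 CPM in Auxin, with no overlap. It rose by 2.42 (SE 0.144, adjusted p = 5.01e-08). Its partner chain Col11a2 (6831 bp) held 0.573, 0.447 and 0.657 CPM in Mock and 1.04, 1.01 and 0.964 CPM in Auxin, a rise of 0.85. The collagen V chains, which seed fibrils together with collagen I, moved by similar amounts. Col5a1 (chromosome 2, 27886425 to 28039514, 8490 bp) went from 4.19, 3.79 and 3.79 CPM to 7.07, 7.07 and 6.84 CPM, a rise of 0.83 (SE 0.0769, adjusted p = 1.76e-06). Col5a2 (9591 bp) went from 1.51, 1.34 and 1.66 CPM to 2.71, 2.51 and 2.63 CPM, a rise of 0.80 (SE 0.113). With the length trend removed, the change of Col5a2 in Auxin against Mock was 0.31 (adjusted p = 0.0336), and its call was lost with the replicate block added (adjusted p = 0.0504). Every Auxin library lay above every Mock library for these 4 genes. Col27a1, a fibrillar chain of cartilage (13022 bp), rose by 0.99 from 0.767, 0.773 and 0.923 CPM to 1.76, 1.17 and 1.97 CPM, but with the length trend removed its change was 0.33 and no longer called (adjusted p = 0.0911).

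Among the major fibrillar chains of adult connective tissue, Col1a1 and Col2a1 were called lower. Col1a1 (6563 bp) fell by 1.47 (SE 0.28, adjusted p = 5.99e-04), from 0.364 to 0.483 CPM in Mock to 0.131 to 0.190 CPM in Auxin, while its partner Col1a2 (12426 bp) changed by 0.85 without passing (adjusted p = 0.0646). Col2a1, the main collagen of cartilage (6001 bp), fell by 1.31, from 0.874 to 1.18 CPM to 0.307 to 0.463 CPM. Col3a1 had 5 counts over the Mock libraries and 0 over the Auxin libraries and was not tested. These chains were all at low levels, with at most 1.18 CPM in a library.

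Type IV collagen was called higher in 4 of 5 tested genes (6 listed) and lower in 1, and the pair Col4a1 and Col4a2 moved in opposite directions. Of the genes called higher, Col4a4 and Col4a6 reached the filter's level in Auxin alone. Col4a1 and Col4a2 encode the chains of the common basement membrane network and are transcribed divergently on chromosome 8 (Col4a1 at 11198423 to 11312826 on the minus strand, Col4a2 at 11312805 to 11449287 on the plus strand, mm10), with first exons that overlap by 22 bases. Col4a1 (7464 bp) held 6.81, 7.45 and 7.54 CPM in Mock and 2.73, 3.35 and 3.77 CPM in Auxin. Col4a2 (6619 bp) held 1.77, 1.53 and 1.82 CPM in Mock and 2.81, 3.16 and 3.43 CPM in Auxin. Neither pair of groups overlapped. Col4a1 fell by 1.15 (SE 0.115, adjusted p = 3.48e-06) and Col4a2 rose by 0.87 (SE 0.12, adjusted p = 4.72e-05), and both calls held with the length trend removed (-1.50 and 0.58). Per kilobase, Col4a1 stood above Col4a2 in Mock (0.974 against 0.258 CPM per kilobase), and the values were 0.440 and 0.473 in Auxin.

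The X-linked pair was close to silent in Mock and detected in every Auxin library. Col4a5 (chromosome X, 141475385 to 141689234, plus strand, 6718 bp) had 1, 5 and 0 counts in Mock and 147, 120 and 106 counts in Auxin, or 1.79, 1.57 and 1.55 CPM. It rose by 6.04 (SE 0.43, adjusted p = 2e-07), and the fitted change of Col4a5 in Auxin against Mock was 7.79 without Mock replicate 2, which held 5 of the 6 Mock counts. Col4a6 (chromosome X, 141165403 to 141474076, minus strand, 7973 bp) had 0 counts in all Mock libraries and 30, 21 and 25 counts in Auxin. Col4a6 was called higher in Auxin (adjusted p = 2.66e-05). Against a floor of 3 counts over the Mock group, its fold in Auxin was 28.8, taken as its bound. Each mate was counted, so 3 counts can come from fewer fragments, and a floor of 3 fragments would give a lower fold. The floor also leaves out variation between libraries. Of the remaining divergent pair, whose starts lie 71 bases apart, Col4a4 rose by 1.13 (adjusted p = 0.0271, lost with the length trend removed) and Col4a3 had 6 counts in Mock and 13 in Auxin.

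**Figure D2:**
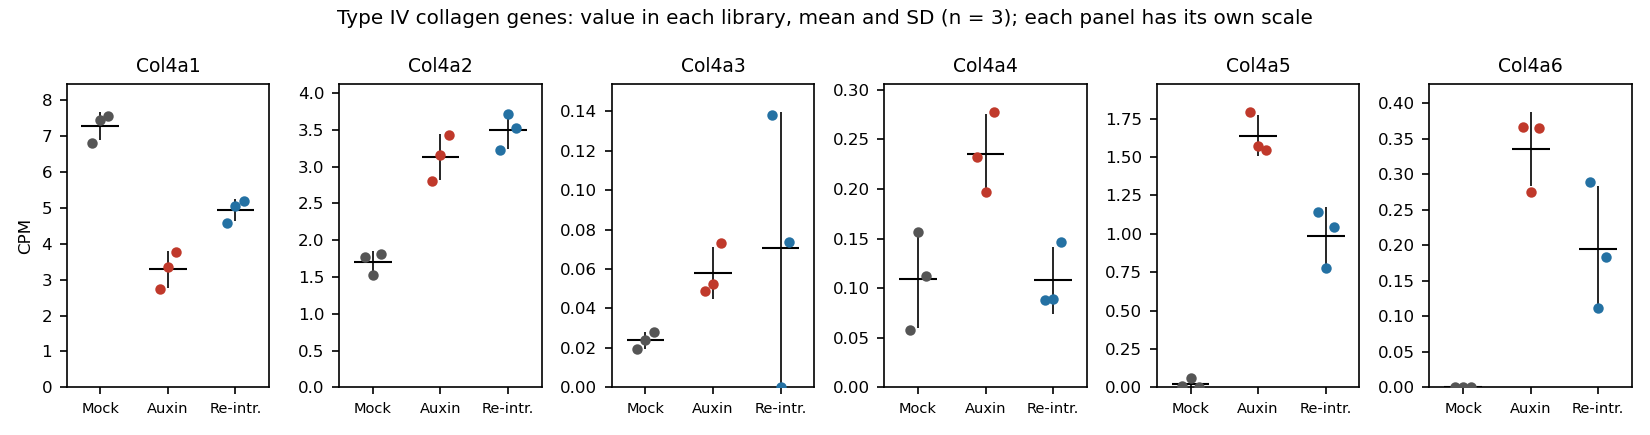
The 6 type IV collagen genes, with points for libraries, horizontal bars for means and vertical bars for SDs (n = 3) on separate CPM axes from 0. Col4a1 is lowest in Auxin, Col4a2 is higher in both treated groups than in Mock, and Col4a6 lies at 0 in the 3 Mock libraries. Col4a3 was not tested.

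Among fibril-associated collagens, which attach to fibrils through interrupted triple helices, 4 of 6 tested genes were called higher (9 listed) and 0 lower. Col20a1 (chromosome 2, 180986535 to 181017540, 4193 bp) had 0.786, 0.507 and 0.783 CPM in Mock and 5.02, 4.17 and 5.99 CPM in Auxin, with no overlap, and rose by 2.86 (SE 0.194, adjusted p = 1.35e-07). Of the collagen IX chains, which coat cartilage fibrils, Col9a2 (3095 bp) rose by 1.36 from 1.26, 0.845 and 1.12 CPM to 2.62, 3.11 and 2.57 CPM, and Col9a3 (3853 bp) rose by 2.00. Col22a1, found at tissue junctions such as those of muscle and tendon (9203 bp), rose by 2.27 from 0.146, 0.157 and 0.0420 CPM to 0.634, 0.407 and 0.701 CPM. Col14a1 and Col16a1 changed by -0.04 and -0.83 and did not pass, and Col16a1 was called lower with the length trend removed (-1.12).

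Of the 4 transmembrane collagens, 3 were called higher. Among these, Col23a1 reached the filter's level in Auxin alone and Col25a1 in no whole group. Col13a1, which sits at cell-matrix adhesions (4605 bp), had 0.854, 0.724 and 0.825 CPM in Mock and 2.37, 2.49 and 2.04 CPM in Auxin and rose by 1.52 (SE 0.162, adjusted p = 5.75e-06). Col25a1 (12947 bp) and Col23a1 (5736 bp) rose by 3.05 and 2.44 from low levels. Col25a1 had 0.0194, 0.0483 and 0.0280 CPM in Mock and 0.341, 0.0918 and 0.380 CPM in Auxin, where Auxin replicate 2 was far below the other replicates. Col23a1 had 0.0776, 0.0362 and 0 CPM in Mock and 0.207, 0.276 and 0.219 CPM in Auxin, and the change of Col23a1 in Auxin against Mock was 3.47 without Mock replicate 1. Col17a1, the hemidesmosome collagen of epithelia (5765 bp), had 1.54, 1.70 and 1.50 CPM in Mock and 1.78, 1.59 and 1.68 CPM in Auxin. Its groups overlapped and its change of 0.09 was not called (adjusted p = 0.584).

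The collagen VI genes, whose products form beaded microfilaments, divided by direction, with 2 of 4 tested genes (6 listed) called higher and 1 lower. Col6a1, called higher, reached the filter's level in Auxin alone. Col6a2 (8326 bp) had 4, 3 and 2 counts in Mock and 38, 31 and 37 in Auxin and rose by 3.69 (SE 0.41, adjusted p = 8.14e-06). Its partner Col6a1 (4380 bp) had 0, 9 and 0 counts in Mock and 14, 21 and 18 in Auxin and rose by 2.68 (SE 0.845, adjusted p = 0.0137), and the call of Col6a1 in Auxin against Mock was lost without Mock replicate 1 (1.99, adjusted p = 0.0509). Without Mock replicate 2, which held all 9 Mock counts, the fitted change was 7.17. Col6a5 (9421 bp) fell by 1.78, from 0.961, 0.917 and 0.923 CPM to 0.146, 0.341 and 0.336 CPM. Col6a4 (8526 bp) changed by -0.50 and did not pass, though it was called lower with the length trend removed (-0.92). Col6a3, the chain that completes the common collagen VI trimer, had 3 counts in each of these groups and was not tested.

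Apart from Col4a5 and Col4a6, the tested collagen gene with the highest fold in Auxin against Mock was Col26a1, a short collagen described in testis and ovary (chromosome 5, 136741759 to 136883209, minus strand, 8176 bp in 14 exon blocks). It had 0.223, 0.193 and 0.210 CPM in Mock and 5.96, 6.40 and 6.11 CPM in Auxin, and rose 29.2-fold (log2 4.87, SE 0.172, adjusted p = 1.06e-09). Col7a1, the anchoring fibril collagen of skin (10287 bp), had 0.893, 0.736 and 0.937 CPM in Mock and 1.02, 0.708 and 1.42 CPM in Auxin. Its groups overlapped, and its change of 0.29 was not called (adjusted p = 0.273) and was -0.25 with the length trend removed.

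**Figure D3:**
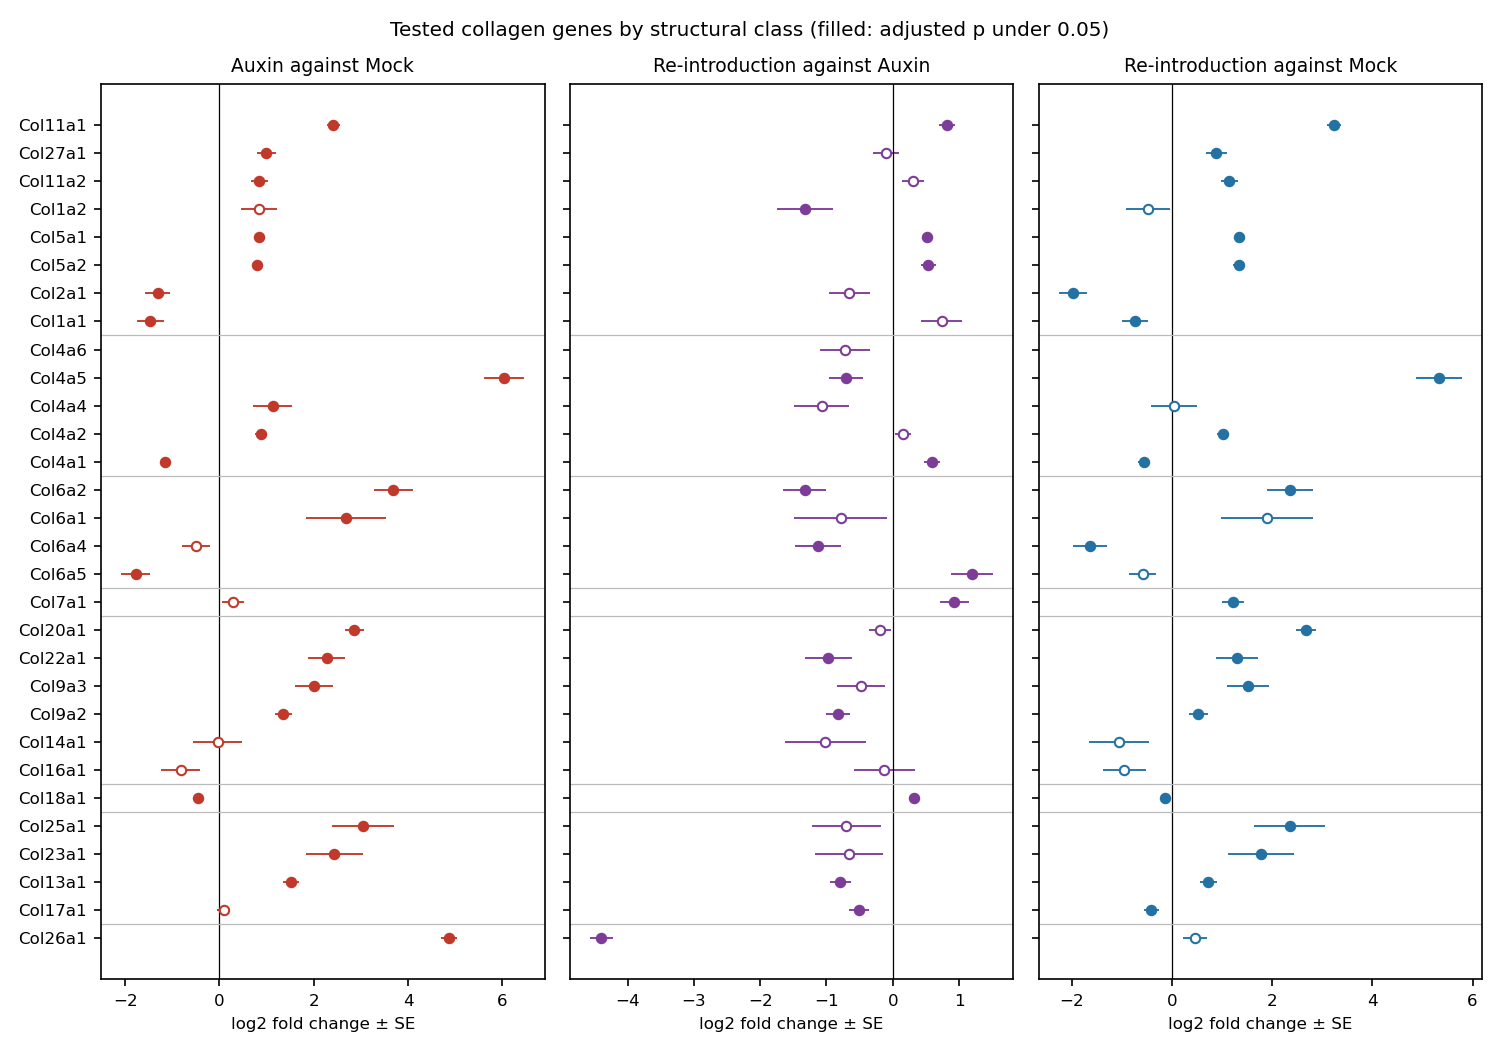
Log2 fold change and SE of the tested collagen genes in each comparison, ordered by structural class from fibrillar (top) to Col26a1 (bottom) with lines between classes. Filled points were called at an adjusted p below 0.05. Col4a6 is shown only for Re-introduction against Auxin, since its Mock libraries held 0 counts. Col26a1 lies at 4.87 in Auxin against Mock, at -4.39 in Re-introduction against Auxin and at 0.47 in Re-introduction against Mock.

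Because longer genes as a whole were higher in Auxin than in Mock, the collagen values were also read against length. When tested protein-coding genes were split into deciles by length, the median change between Auxin and Mock ran from -0.42 for the shortest decile (1132 bp) to 0.62 for the longest (11440 bp). Within the 30 tested collagen genes, the log2 fold change showed little relation to log2 length (Pearson r = -0.018, Spearman rho = -0.051, a description over genes that share libraries). After a per-library trend with exon length was removed, calls stood at 17 collagen genes higher and 7 lower. In that fit, 8768 of all 20838 genes were called higher and 6614 lower. Of the 8810 protein-coding genes in the collagen length range, 3570 were higher and 3393 lower. The collagen median was 0.56 against 0.03 for those protein-coding genes. With length and G+C content removed together, 18 collagen genes were higher and 6 lower (median 0.70), against 8840 and 6780 of all genes. The changes of Col11a1 (1.78), Col5a1 (0.41), Col20a1 (2.82), Col26a1 (4.46) and Col4a5 (5.75) were still called with the length trend removed. What makes the libraries differ with length was not tested.

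**Figure D4:**
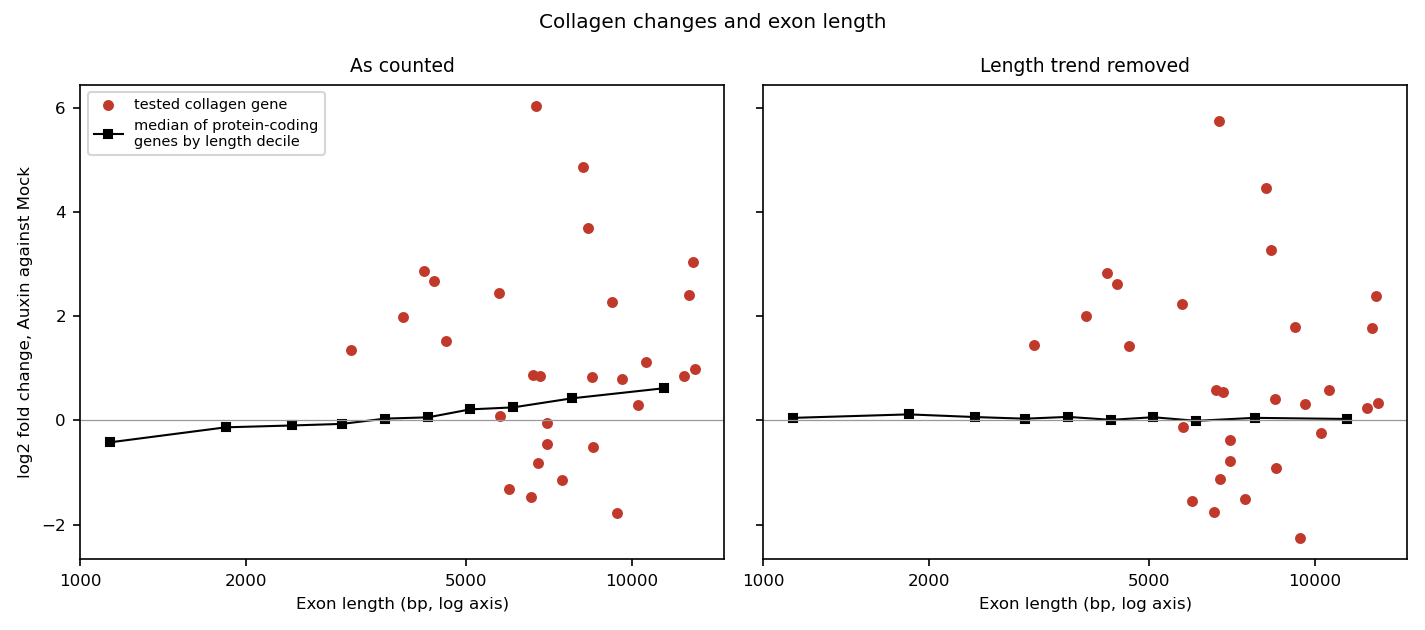
Log2 fold change in Auxin against Mock against summed exon length (log axis) for the tested collagen genes except Col4a6 (red) and for medians of protein-coding genes by length decile (black), as counted (left) and with a per-library length trend removed (right). The black line runs from -0.42 to 0.62 on the left and lies between -0.01 and 0.12 on the right, while the collagen genes spread widely in both.

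The comparison of Re-introduction with Auxin addresses the first 4.5 h without auxin. In it, 7 collagen genes were called higher and 9 lower. The background was 50.9% of all genes called, 25.5% higher and 25.5% lower, and 60% called among protein-coding genes of the same lengths. Of those 8810 protein-coding genes, 2448 were called higher and 2834 lower. The share of collagen genes called, 16 of 30, was near that background. The median of the tested collagen genes was -0.58, against 0.003 over all genes. Without Re-introduction replicate 2, the shallowest library, 5 were called lower in place of 9.

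Of the 8 tested fibrillar chains, 3 rose further after washout and 1 fell. Col11a1 had 11.1, 10.4 and 11.1 CPM in Re-introduction, above every Auxin library, and rose by 0.82 (SE 0.124, adjusted p = 2.4e-04). Col5a1 had 9.95, 10.6 and 9.59 CPM and rose by 0.52 (SE 0.0744, adjusted p = 1.6e-04), and Col5a2 had 4.03, 3.70 and 3.65 CPM and rose by 0.54. Col7a1, whose change in Auxin was not called, had 2.08, 1.78 and 2.07 CPM and rose by 0.93 (SE 0.218, adjusted p = 4.3e-03). Col11a2 (1.22, 1.16 and 1.32 CPM) changed by 0.30 and Col27a1 (1.42, 1.40 and 1.70 CPM) by -0.10, and neither was called. Col1a2 fell by 1.32 (adjusted p = 0.0207).

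Some genes moved back towards their Mock level. Col26a1 had 0.376, 0.290 and 0.208 CPM in Re-introduction against about 6 CPM in Auxin, and fell by 4.39 (log2, SE 0.17, adjusted p = 8.97e-09), and no other tested collagen gene changed as much in this comparison. Col4a1 had 4.58, 5.03 and 5.20 CPM, between its Auxin and Mock values, and rose by 0.59 (SE 0.118, adjusted p = 1.59e-03). Col6a5 (0.464, 0.601 and 0.797 CPM) rose by 1.19. Col9a2 (1.67, 1.83 and 1.24 CPM) fell by 0.83, Col13a1 (1.36, 1.58 and 1.10 CPM) fell by 0.79, and Col6a2 (11, 6 and 22 counts) fell by 1.33. For each of these genes, the Re-introduction libraries did not overlap the Auxin libraries. Since both comparisons use the Auxin libraries, opposite signs of their values are not independent.

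Col4a2 and Col20a1 were among the 14 tested genes with no call after washout. Col4a2 had 3.22, 3.72 and 3.53 CPM and changed by 0.15 (SE 0.116, adjusted p = 0.298). Col20a1 had 5.09, 4.19 and 3.98 CPM and changed by -0.19 (adjusted p = 0.367). Col4a5 had 1.14, 0.780 and 1.04 CPM and fell by 0.71 (adjusted p = 0.0362), a call that was lost in 5 of the 6 fits that left out an Auxin or Re-introduction library, and Col4a6 had 23, 5 and 15 counts, with an uncalled change of -0.72. Col22a1 (0.276, 0.334 and 0.282 CPM) fell by 0.98 (adjusted p = 0.039), with the same loss in 5 of 6 such fits. Col17a1 had 1.19, 0.958 and 1.36 CPM, below every Auxin library, and fell by 0.50 (adjusted p = 0.0157). Col6a4 fell by 1.13, moving further from Mock. The changes of Col6a1 (-0.78), Col23a1 (-0.66) and Col25a1 (-0.70) were not called.

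The comparison of Re-introduction with Mock addresses which differences from the control persisted. In it, 17 collagen genes were called higher and 6 lower in Re-introduction against Mock. The background was 68.1% of all genes called, 34.7% higher and 33.4% lower, and 74.1% among protein-coding genes of the same lengths. Of those 8810 protein-coding genes, 4029 were called higher and 2498 lower. The share of collagen genes called, 23 of 30, was near that background. Their median was 0.96 (0.96 also with Col4a6 at its bound). It was 0.03 over all genes and 0.17 over protein-coding genes of the same lengths. With the length trend removed, the collagen median was 0.65, and 14 collagen genes were called higher and 8 lower. In that fit, 7408 of all 20838 genes were called higher and 6598 lower. Of the 8810 protein-coding genes, 3044 were then higher and 3475 lower. The 3 comparisons share libraries, so their values for a gene are related by construction.

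Col11a1 stood 9.40-fold above Mock (log2 3.23, SE 0.144, adjusted p = 1.86e-08), Col5a1 rose by 1.35 (SE 0.0767, adjusted p = 9.25e-08), Col5a2 by 1.34, Col11a2 by 1.15 and Col27a1 by 0.89. With the length trend removed, Col27a1 changed by 0.21 and was not called. Col2a1 (0.276, 0.334 and 0.159 CPM) fell by 1.97 and Col1a1 fell by 0.73. In the basement membrane class, Col4a2 rose by 1.03 and Col4a5 by 5.33 (SE 0.455, adjusted p = 1.74e-06). Col4a6 stood 17.9-fold above the same floor of 3 Mock counts, with the same limits. The fitted change of Col4a5 in Re-introduction against Mock was 7.07 without Mock replicate 2. Col4a1 was still below Mock, having fallen by 0.56 (adjusted p = 1.09e-03). Col20a1 rose by 2.67 and Col7a1 by 1.22. Col13a1 rose by 0.73, and Col9a2 rose by 0.53 (adjusted p = 0.0295) with overlapping groups, a call lost in 4 of 6 fits that left out a library.

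Col6a2 rose by 2.36 (adjusted p = 8.72e-04), Col25a1 by 2.35, Col23a1 by 1.78 and Col22a1 by 1.30, all from under 0.16 CPM in every Mock library. The call of Col23a1 was lost without any 1 of 4 libraries, and the change of Col23a1 in Re-introduction against Mock was 2.80 without Mock replicate 1. With the length trend removed, the calls of Col23a1 (1.57, adjusted p = 0.0566) and Col22a1 (0.83) were lost. Col6a1 changed by 1.90 and was not called (adjusted p = 0.0875). Mock replicate 2 held all 9 of its Mock counts, and without that library Col6a1 in Re-introduction against Mock was called (adjusted p = 0.0022). Col6a4 fell by 1.63 and Col17a1 by 0.41, while Col6a5 changed by -0.58 without passing (adjusted p = 0.0803). Every Re-introduction library of Col6a5 lay below every Mock library. Col6a5 was called lower with the length trend removed (-1.07, adjusted p = 0.0068) and with length and G+C removed (-0.95, adjusted p = 0.0104). Col26a1 differed from Mock by 0.47, which was not called (adjusted p = 0.109) but was called under total-count scaling (0.60) and without Re-introduction replicate 3 (0.68).

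Collagen chains need a set of enzymes and chaperones in the endoplasmic reticulum before they can be secreted. Of 21 such genes, 18 were tested, and in Auxin against Mock 11 were called higher and 4 lower (median 0.42). Serpinh1, the collagen-specific chaperone Hsp47, had 27.5, 27.6 and 26.6 CPM in Mock, 161, 181 and 151 CPM in Auxin and 94.1, 94.1 and 98.6 CPM in Re-introduction. The 3 groups did not overlap. It rose by 2.59 in Auxin against Mock (SE 0.07, adjusted p = 2.09e-10), fell by 0.78 in Re-introduction against Auxin and rose by 1.81 in Re-introduction against Mock. The prolyl 4-hydroxylase subunit P4ha2 and the prolyl isomerase Fkbp10 rose by 1.43 and 1.09 in Auxin against Mock, whereas P4hb, the disulfide isomerase that serves as the beta subunit of prolyl 4-hydroxylase, fell by 0.79. In Re-introduction against Auxin, 5 genes of this list were called higher and 4 lower, with Fkbp10 falling by 0.58 and P4hb rising by 0.49. In Re-introduction against Mock, 12 were higher and 3 lower, P4ha2 and P4ha1 by 1.43 and 1.37.

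Genes that trim, cross-link or bind secreted collagen were split. Of 12 tested (14 listed), 5 were called higher and 5 lower in Auxin against Mock. Pcolce and Pcolce2, which enhance cleavage of the procollagen C-terminal propeptide, fell by 2.05 and 1.45, and Pcolce had 182, 166 and 166 CPM in Mock, 39.2, 43.6 and 41.1 CPM in Auxin and 59.6, 54.8 and 55.3 CPM in Re-introduction. Sparc, a matrix protein that binds collagen, fell by 1.23, from 230 to 238 CPM in Mock to 91.9 to 107 CPM in Auxin. Bmp1, the procollagen C-proteinase, rose by 2.41 in Auxin against Mock (SE 0.121) and its relative Tll1 by 3.34. In Re-introduction against Auxin 4 were higher and 2 lower, with Pcolce2 rising by 0.82, Sparc rising by 0.74 and Tll1 falling by 1.76. In Re-introduction against Mock 6 were higher and 5 lower, with Pcolce at -1.60 and Bmp1 and the lysyl oxidase relative Loxl2 higher by 2.32 and 2.01.

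All 16 basement membrane partners of type IV collagen were tested, and 10 were called higher and 4 lower in Auxin against Mock (median 0.89). These values include the length trend. With it removed, Lamb3 (1.91), Pxdn (1.22) and Nid1 (1.04) were still called higher in Auxin against Mock. Hspg2 then rose by 0.20, Lama1 changed by 0.07 and was not called, and Lamb1 (-0.51) and Lamc1 (-0.43) were called lower. Lamb3, a laminin beta chain, had 1.65, 1.56 and 1.45 CPM in Mock and 6.92, 7.35 and 7.29 CPM in Auxin and rose by 2.20 (SE 0.09, adjusted p = 2.92e-09). Nid1, which links laminin to type IV collagen, rose by 1.29 from 147, 159 and 159 CPM to 399, 374 and 364 CPM, and Pxdn, the peroxidase that forms sulfilimine cross-links in type IV collagen, rose by 1.70. In Re-introduction against Auxin 2 were higher and 8 lower, with Lamb3 and Pxdn falling (-1.24 and -0.82) and Nid2 rising by 0.38. In Re-introduction against Mock 10 were higher and 3 lower, among them Nid1 (1.00) and the perlecan gene Hspg2 (1.01, or 0.27 with the length trend removed).

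Of 7 tested collagen receptors (10 listed), 4 were called higher and 1 lower in Auxin against Mock. The discoidin domain receptors, tyrosine kinases that collagen activates, moved in opposite directions. Ddr2 had 1.27, 1.53 and 1.52 CPM in Mock, 15.7, 11.3 and 16.3 CPM in Auxin and 5.95, 5.88 and 5.62 CPM in Re-introduction, rising by 3.33 (SE 0.146, adjusted p = 4.73e-09) and then falling by 1.31. Ddr1 fell by 0.59 and then rose by 0.63. Itgb1, the beta subunit of the collagen-binding integrins, rose by 0.89 in Auxin against Mock. Against Mock, after washout 4 receptors were higher and 0 lower, among them Itgb1 (0.98), Ddr2 (2.02) and Itga1 (2.26). After washout against Auxin, 2 were higher and 1 lower.

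Of the degradation list, 9 of 12 counted genes were tested (13 listed), with 6 called higher and 2 lower in Auxin against Mock. Mmp2 and Mmp16, a secreted and a membrane-bound metalloproteinase, rose by 1.06 and 1.53, and the membrane-bound Mmp14 fell by 0.61. In Re-introduction against Auxin 2 were higher and 3 lower, with Mmp16 rising by 1.12, Mmp2 falling by 0.70 and Mmp14 rising by 0.35. In Re-introduction against Mock 4 were higher and 3 lower, with Mmp16 higher by 2.64, the metalloproteinase inhibitor Timp3 higher by 1.57 and its relative Timp1 lower (-0.67). With the length trend alone removed, Mmp16 was higher by 2.21 and Timp1 was still called lower (-0.24, adjusted p = 0.0239). With length and G+C trends removed, Mmp16 was higher by 2.04, and Timp1 changed by -0.14 and was not called (adjusted p = 0.16). Of the genes named in these lists, Fkbp10, Pcolce, Loxl2, Nid2, Ddr1, Ddr2 and Timp3 share exon sequence with another gene. The shares called in these lists have the same background as those of the collagen genes.

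**Figure D5:**
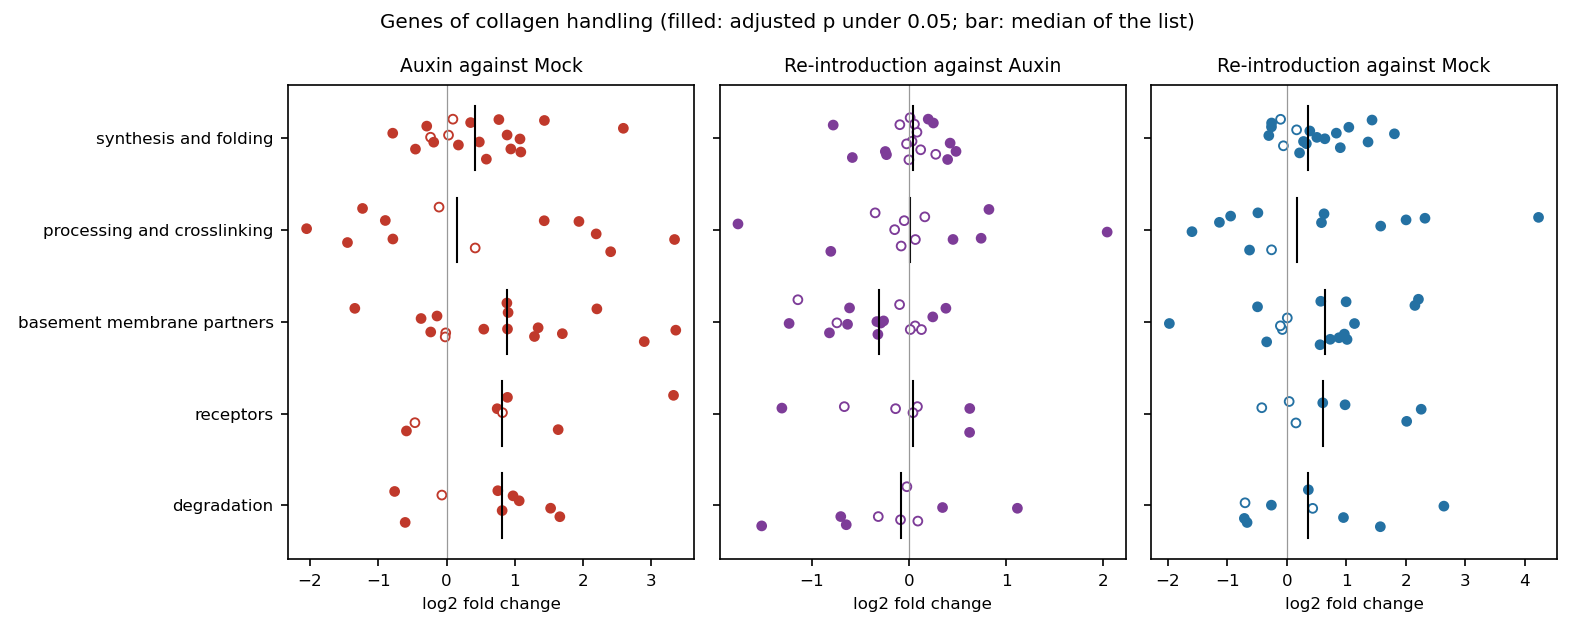
Log2 fold change of tested genes of collagen handling in each comparison, by list. Filled points were called at an adjusted p below 0.05, black bars are list medians, and vertical scatter within a list has no meaning. In Auxin against Mock the medians lie between 0.16 (processing and crosslinking) and 0.89 (basement membrane partners), with genes on both sides of 0 in every list.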

How the data were processed

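Polyadenylated RNA of 9 libraries was measured, 3 each of Mock, Auxin and Re-introduction. The deposited values are raw counts per gene, which the authors made by summing exon reads per gene in featureCounts 2.0.6 (mm10 annotation, paired-end mode, no strand setting), per the file headers. Mates were counted separately. The submitters' processing notes also list Trim Galore 0.6.10, FastQC 0.12.1, Bowtie2 2.5.3 and SAMtools 1.20. Symbols and gene types came from GENCODE M21, matched for 48058 of 48440 genes, and promoter windows from RefSeq (GRCm38.p6). Exon length is the deposited length column. No protein or genome sequence was used here.

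Genes were filtered with filterByExpr and scaled with TMM factors (0.905 to 1.08) in edgeR 4.0.16 (R 4.3.3, limma 3.58.1). All libraries entered 1 quasi-likelihood fit by group, with two-sided tests and Benjamini-Hochberg adjustment over 20838 genes (threshold 0.05, common biological variation 9.15%). SE was derived from the F statistic. No source names separate cultures beyond the series text, which calls the replicates biological. On simulated counts for 20838 genes, the test recovered 77% of 200 genes changed 2-fold in Auxin against Mock, 74% in Re-introduction against Auxin and 74% in Re-introduction against Mock. Of the calls, 7.23%, 5.73% and 6.33% were false in that order. All other genes were left unchanged, whereas 73.2% were called in Auxin against Mock in the data. The simulation therefore does not show how the test and scaling behave when most genes change. Values are given in every library for collagen genes whose mean reached 1 CPM in any group and for those called in Auxin against Mock at 4-fold or more without overlap, and for each list of collagen handling the 3 called genes with the smallest p in each comparison are named. A gene to which this applies is not reported here. Col1a1, Col1a2, Col2a1, Col3a1 and the other collagen genes below those limits were named to complete their classes. The collagen genes, the gene lists and the tests were chosen with earlier results of these data known.

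Alternatives were DESeq2 1.42.0 size factors and Wald test, total-count scaling, other filters, a fit of 2 groups, the replicate number as a block, removal of per-library trends with exon length (spline with 5 degrees of freedom) alone or with G+C content, halved counts, a 2-fold requirement, genes sharing exons left out, and each library left out.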

Additional observations from a re-analysis of the deposited data

How the results depend on the processing

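Under total-count scaling the median change over all genes moved from 0.05 to 0.26 in Auxin against Mock (63.3% of calls higher, against 52.4%), from 0.003 to -0.08 in Re-introduction against Auxin (40.1% against 50%) and from 0.03 to 0.16 in Re-introduction against Mock, and 3 collagen genes in place of 6 were called lower in the last of these. A 2-fold requirement left 6625, 2289 and 4664 of all genes in the 3 comparisons in that order, and of collagen genes 1 higher and 4 lower in Re-introduction against Auxin and 2 lower in Re-introduction against Mock. Requiring 1 CPM in 3 libraries left 15 collagen genes tested, with 11 higher and 2 lower in Auxin against Mock, 5 lower in Re-introduction against Auxin, and 11 higher and 3 lower in Re-introduction against Mock. Leaving out genes that share exons gave 4 higher in Re-introduction against Auxin and 11 higher in Re-introduction against Mock. With each library left out in turn, all genes called ranged from 14381 to 16236 in Auxin against Mock, from 9142 to 11581 in Re-introduction against Auxin and from 13106 to 15313 in Re-introduction against Mock. Collagen genes called higher ranged from 17 to 20, 6 to 7 and 14 to 18, and lower from 5 to 5, 5 to 10 and 4 to 7.

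The following 3 changes that were not called turned direction. With the length trend removed, alone, with the replicate block, or with G+C content, Col7a1 in Auxin against Mock was -0.25, -0.27 and -0.041, and Col17a1 was -0.13, -0.13 and -0.031. With a library left out, Col27a1 in Re-introduction against Auxin ranged from -0.31 (without Auxin replicate 2) to 0.049 (without Auxin replicate 3). Of 1228 recomputed values of named collagen genes, 1167 kept direction and call, 49 lost the call, 5 gained it and 7 turned. Same-numbered libraries did not deviate together (correlations from -0.17 to 0.05), so the numbers were not taken as pairs. With the replicate block, the calls of Col22a1 in Re-introduction against Auxin (-0.98, adjusted p = 0.0726), of Col4a5 in Re-introduction against Auxin (-0.72, adjusted p = 0.0647) and of Col18a1 in Re-introduction against Mock (-0.13, adjusted p = 0.0716) were lost. The cause of these changes was not tested. Depth limits the genes under 1 CPM most, since few counts lie behind each value.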
